A study of Anas platyrhynchos with 18 samples.

Results

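The microRNA (miRNA) miR-184 was followed through the development of feathered skin in White Pekin ducks. Its members were taken by name, as every mature miRNA called miR-184 or an arm of it. This gave 2 members, the main strand miR-184-3p and its partner miR-184-5p, of 353 mature miRNAs with at least 1 count in the 17 libraries used here. The study compared small RNA from back skin at 6 stages, to follow how miRNA levels change while feather follicles form. The stages were embryonic days 11, 15 and 20 (11EM, 15EM and 20EM), 1 day after hatch (1DB), and 4 and 10 weeks of age (4WK and 10WK). All birds were untreated, of one breed and from one company, and the skin was taken just above thoracic vertebrae. There were 3 libraries per stage, except 2 at 20EM, where replicate 2 is not used here. Whether each library came from a different bird is not given in the sources used here, so p-values measure only the spread between libraries, which may be technical.

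A miRNA is cut from a hairpin RNA into a duplex of 2 short strands, of which one is usually kept and guides a silencing complex to messenger RNAs. Pairing rests mainly on the seed, bases 2 to 8 from the 5′ end. In mammals miR-184 is known as an epithelial miRNA, abundant in the cornea and lens and present in the epidermis. In human keratinocytes it was described as an antagonist of miR-205, another epithelial miRNA, at the transcript of the lipid phosphatase SHIP2. For this reason miR-205a and its near copy miR-205b are shown beside the miR-184 arms, with the seed of each in capitals. The sequences are the chicken ones to which the duck reads were matched, in the list of mature miRNAs that accompanied the study.
miR-184-3p: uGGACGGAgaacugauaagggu
miR-184-5p: cCUUAUCAcuuuuccagcccagc
miR-205a: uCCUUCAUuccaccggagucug
miR-205b: cCCUUCAUuccaccggaaucug

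The seed of miR-184-3p was found in no other of the 329 mature sequences read, and none shared its bases 2 to 7. The closest seeds, in 3 miRNAs, still differed at 2 positions. Over its whole length of 22 bases the nearest sequences were 9 edits away, and none lay within 2 edits. By contrast, miR-205a and miR-205b have 1 seed in common and differ at only 2 bases, so reads of those 2 miRNAs could be assigned to each other. The arms of miR-184 could form a duplex with 16 base pairs. The place of the gene in the duck genome is not given here.

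Nearly all miR-184 reads came from the 3p arm. Of 55694 reads of either arm, 33 were miR-184-5p, a share of 0.0593% with an exact 95% interval of 0.0408% to 0.0832%. The 5p arm had a count in 10 of the 17 libraries and never more than 7 counts in 1 library. At 20EM it had 0 of 776 reads, which by a limit of 3 counts allows a share of up to 0.387%. Its pooled level was 0.0709 CPM at 11EM and 0.267 at 15EM, then 0.179 at 1DB, 0.788 in 4-week-old and 0.398 in 10-week-old skin, where CPM is a miRNA's count scaled to a common library total. The 5p share was 13 of 9316 reads before hatch (0.140%, exact 95% interval 0.0743% to 0.239%) and 20 of 46378 after (0.0431%, 0.0263% to 0.0666%). These intervals cover counting error only and do not include the spread between libraries. The 5p arm passed the low-count filter only through 4WK replicates 2 and 3, so no test of it is given, and the rest of the account concerns miR-184-3p.

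miR-184-3p was lower in embryonic skin than after hatch, where it ranked between 37th and 87th of all miRNAs within a library. At 11EM the 3 libraries held 17.5, 74.1 and 76.4 CPM, with replicate 1 well below the others. At 15EM they held 188, 90.7 and 214 CPM, all above the 11EM libraries, with replicate 2 closest to them. At 20EM the 2 libraries held 55.7 CPM (replicate 1) and 33.0 CPM (replicate 3), back within the 11EM range. One day after hatch the level was 319, 479 and 310.2 CPM, above every embryonic library. At 4WK it reached 872, 2790 and 2342 CPM. Replicates 2 and 3 were the highest libraries of the series, and replicate 1 was well below them. At 10WK it stood at 748, 642 and 1137 CPM, a range that includes 4WK replicate 1.

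**Figure D1:**
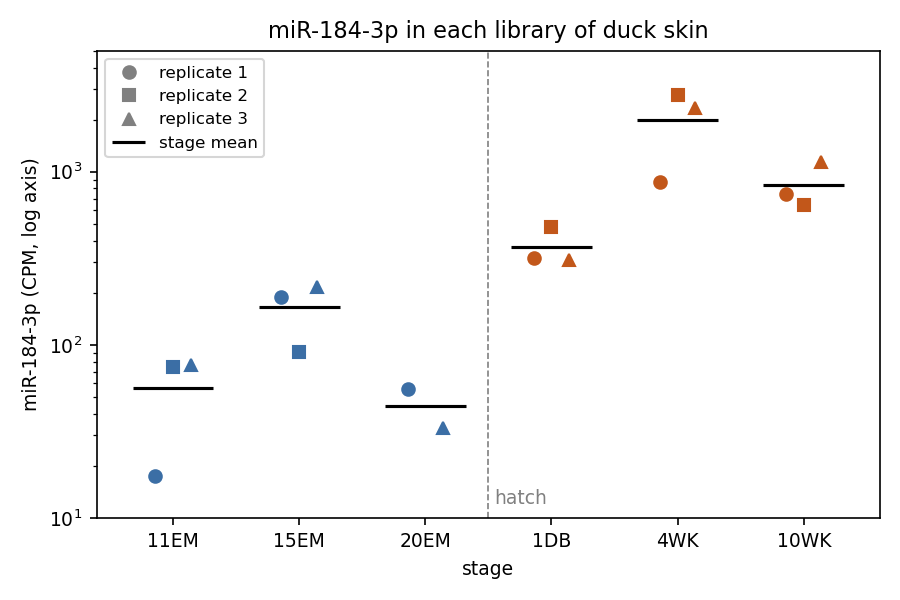
Level of miR-184-3p in each of the 17 libraries, in CPM of the library total on a log axis, by stage. Symbols give the replicate number, bars the stage mean and the dashed line hatch; every library before hatch lies at or below 214 CPM and every library after hatch at or above 310.2 CPM.

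The stage means, in CPM with the SD, were 44.4 ± 16.1 at 20EM (n = 2), 56.0 ± 33.4 at 11EM and 164 ± 65.2 at 15EM (n = 3 each for these and the later stages). They were 369 ± 94.8 in skin of 1DB, 843 ± 261 in that of 10WK and 2001 ± 1004 in that of 4WK. In that order, 3 pairs of neighbours did not pass a test against the spread between libraries (edgeR, values given with each comparison): 20EM and 11EM, 1DB and 10WK, and 10WK and 4WK. The mean at 4WK was 45.1 times that at 20EM and 35.8 times that at 11EM. Across single libraries the highest value was 160 times the lowest. By rank within a library, miR-184-3p went from between 127th and 165th of all miRNAs at 11EM to between 37th and 62nd at 4WK.

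The reads behind each value were few only in some embryonic libraries. Library totals ran from 3072942 to 15839714 counts, and 3 counts corresponded to 0.189 to 0.976 CPM. The lowest counts of miR-184-3p were 132 in 20EM replicate 3 and 238 in 11EM replicate 1. Their Wilson 95% intervals of 27.8 to 39.1 CPM and 15.4 to 19.8 CPM, for counting error only, were narrow beside the 4.37-fold range of the 3 libraries at 11EM. The spread between libraries of a stage was wide for this miRNA. Its within-stage SD on the log2 scale was 0.75, against a median of 0.28 over the 182 miRNAs of at least 10 CPM, of which 11 had a larger SD.

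The comparison across hatch asked how the 8 embryonic libraries differed from the 9 later ones. miR-184-3p was 93.7 ± 70.8 CPM before hatch and 1071 ± 894 CPM after it (SD), with no overlap between the groups. It rose 13.2-fold (95% interval 7.71 to 22.6) by edgeR's quasi-likelihood test, a log2 change of 3.72 (SE 0.36, Benjamini-Hochberg adjusted p = 2.17e-07). The fit set the mean of the embryonic stages against that of the later stages, with each stage weighted alike. Its SE, interval and p-value rest on the spread between libraries within stages. They leave out the differences between stages of the same period, so they do not treat stages as the units. For a call, the adjusted p had to be below 0.05 and the fold change no smaller than 2. In this comparison 50.4% of the 252 tested miRNAs were called in either direction, 21% as higher and 29.4% as lower after hatch, so a call by itself was common. The size of the change was less so, since miR-184-3p ranked 8th from the top among the 252. Of the miRNAs tested, 24 (9.52%) had all later libraries above all embryonic ones, and miR-184-3p was one of them. Library scaling moved the median of all tested miRNAs from -0.16 with TMM factors to -0.37 with library totals. Relative to that median, miR-184-3p rose by 3.88 and 3.89 on the log2 scale.

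The course from stage to stage had 3 rises, 1 fall and a last step that did not pass the test. From 11EM to 15EM miR-184-3p rose 2.75-fold (95% interval 1.26 to 5.99, log2 change 1.46, SE 0.53, edgeR adjusted p = 0.0363). Of all tested miRNAs, 28.6% were called in that comparison, and miR-184-3p was 25th from the top. The call was lost without 11EM replicate 1 (adjusted p = 0.0567), 15EM replicate 1 (0.0671) or 15EM replicate 3 (0.118) by the same test. From 15EM to 20EM it fell, with a log2 change of -1.87 (SE 0.62, edgeR adjusted p = 0.0393), where 13.9% of miRNAs were called. That change ranked 11th from the bottom, but 13 of 25 other settings lost the call, including those without either 20EM library (adjusted p = 0.111 without replicate 1 and 0.239 without replicate 3). Between the ends of this interval, 11EM and 20EM, the log2 change was -0.41 (SE 0.59, edgeR adjusted p = 0.575, fold 0.752, 95% interval 0.315 to 1.80), with 34.9% of miRNAs called. The direction of that difference was not settled, since its sign turned without 11EM replicate 2 (0.27) or replicate 3 (0.24).

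From 20EM to 1DB the level rose 9.84-fold (95% interval 3.66 to 26.5, log2 change 3.30, SE 0.67, edgeR adjusted p = 0.00141). In this comparison 28.6% of miRNAs were called, 11.5% as higher, and miR-184-3p ranked 6th from the top. From 1DB to 4WK it rose a further 5.01-fold (95% interval 2.25 to 11.1, log2 change 2.32, SE 0.54, edgeR adjusted p = 0.00391). There 22.2% of miRNAs were called, and it ranked 13th. From 4WK to 10WK the log2 change was -1.10 (SE 0.52, edgeR adjusted p = 0.236, fold 0.467 with a 95% interval that ran from 0.216 to just above 1), which did not pass the test. Few miRNAs did in that comparison, 1.19% of those tested. From 1DB to 10WK the log2 change was 1.22 (SE 0.52, edgeR adjusted p = 0.0828, fold 2.34, 95% interval 1.08 to 5.06), with 20.6% called. Without 11EM replicate 1 that difference was called (adjusted p = 0.0333). Neighbouring comparisons share a stage's libraries, so they are not independent of each other.

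**Figure D2:**
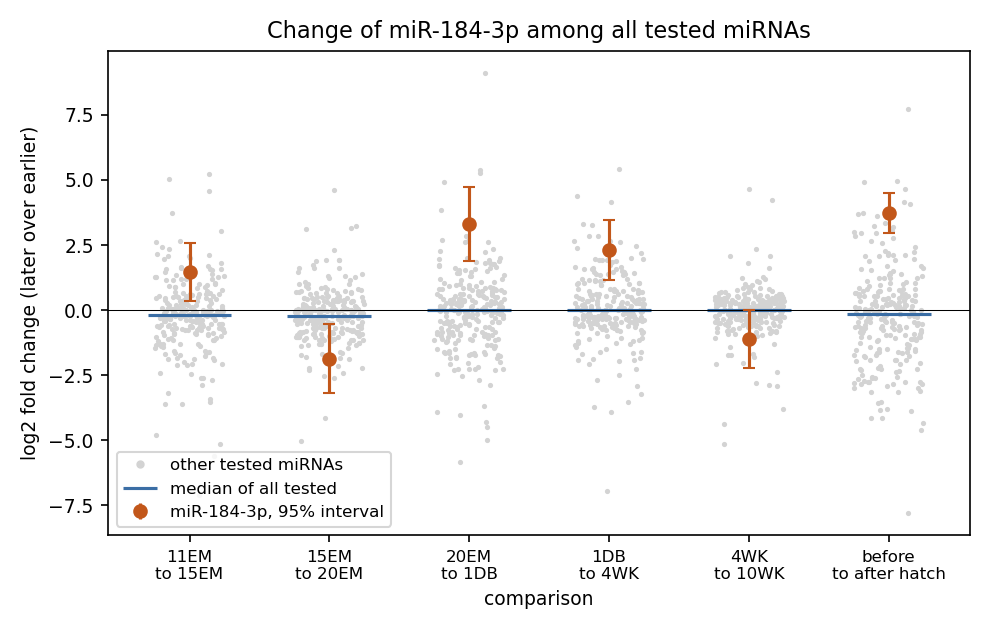
Log2 fold change of miR-184-3p (orange, with the 95% interval of edgeR's quasi-likelihood fit) in 6 comparisons, among the other 251 tested miRNAs (grey). The blue line is the median of all 252 tested miRNAs. The estimate lies high above the median from 20EM to 1DB (3.30) and across hatch (3.72) and below it from 15EM to 20EM (-1.87) and from 4WK to 10WK (-1.10).

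Each embryonic stage was also set against each later one. From 11EM, the log2 change was 2.89 to 1DB (SE 0.55, adjusted p = 0.000353, 48.4% of miRNAs called), 5.21 to 4WK (SE 0.61, adjusted p = 2.38e-06, 58.7% called) and 4.11 to 10WK (SE 0.58, adjusted p = 1.57e-05, 58.7% called) in edgeR. From 15EM it was 1.43 to 1DB (SE 0.52, edgeR adjusted p = 0.0266, 49.2% called), the smallest of the 9 differences across hatch. That call was lost without 15EM replicate 2 (adjusted p = 0.103) or 1DB replicate 2 (0.0797). From 15EM to 4WK the change was 3.75 (SE 0.57, edgeR adjusted p = 4.26e-05, 52% called) and to 10WK 2.65 (SE 0.55, adjusted p = 0.000545, 57.1% called). The largest difference was from 20EM to 4WK, a 49.3-fold rise (95% interval 16.1 to 151, log2 change 5.62, SE 0.75, edgeR adjusted p = 3.19e-05), with 35.7% called. From 20EM to 10WK the change was 4.52 (SE 0.71, edgeR adjusted p = 8.84e-05, 42.1% called). All 9 of these pairs of stages were therefore called, in the direction of more miR-184-3p after hatch. Over the 6 stages together miR-184-3p differed with an edgeR adjusted p of 1.66e-06, as did 84.9% of miRNAs at an adjusted p under 0.05. Its range over the stage means, 5.47 on the log2 scale, was exceeded by 7 of the 252 miRNAs, and the median range was 1.89.

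The name epithelial was checked against 8 other miRNAs known as epithelial in vertebrate skin: miR-205a, miR-205b, miR-203a, miR-200a-3p, miR-200b-3p, miR-429-3p, miR-183 and miR-31-5p. All 8 were measured in this skin. Their summed level was 23394 to 47755 CPM at 11EM, 89505 to 121259 by 15EM and 78924 to 87564 by 20EM. It was 36690 to 47947 CPM at 1DB, 81294 to 91782 in 4WK skin and 64658 to 74092 in 10WK skin. Most of this sum was miR-205a and miR-205b at 11EM (means 20292 and 9699 CPM), and miR-205a and miR-203a from 15EM on. It therefore says little about the other members. The means of miR-205a and miR-203a were 69285 and 19557 CPM at 15EM, and 43072 and 33203 CPM at 4WK. In whole skin, fewer cells of a type and less RNA per cell cannot be told apart. From 11EM to 15EM 5 of the 8 rose, as miR-184-3p did, and none fell, where 12.7% of all tested miRNAs rose and 15.9% fell. From 15EM to 20EM, where miR-184-3p fell, 1 of the 8 fell (miR-183) and none rose, with 13.9% of all called. The median log2 change of the list in that step was -0.57, against -0.22 over all. From 20EM to 1DB, where miR-184-3p rose 9.84-fold, none of the 8 rose and 5 fell, against 11.5% and 17.1% of all tested miRNAs. Those 5 were miR-200a-3p, miR-203a, miR-205b, miR-31-5p and miR-429-3p. The median log2 change of the list was -1.32 in that comparison, against -0.01 over all 252 miRNAs. From 1DB to 4WK, 5 of 8 rose with miR-184-3p and 2 fell, against 14.3% and 7.94% of all. Across hatch 1 of the 8 rose (miR-203a, which drives keratinocytes out of the cell cycle in mouse skin) and 2 fell (miR-183 and miR-205b). Of all tested miRNAs 21% rose and 29.4% fell there, so these counts were not above the shares over all. The median log2 change of the list was -0.03, against -0.16 over all. With library totals in place of TMM factors, 2 of the 8 changed sign across hatch, and miR-200b-3p also passed the test as lower from 20EM to 1DB. In these libraries miR-184-3p therefore went with most of the list in the steps to 15EM and to 4WK, and against most of it in the step to 1DB. The members that rose included miR-200a-3p, miR-200b-3p and miR-429-3p both to 15EM (log2 changes 2.08, 1.98 and 1.57) and to 4WK (1.45, 1.38 and 1.04). They changed alike, so members of the list may not be independent of each other.

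**Figure D3:**
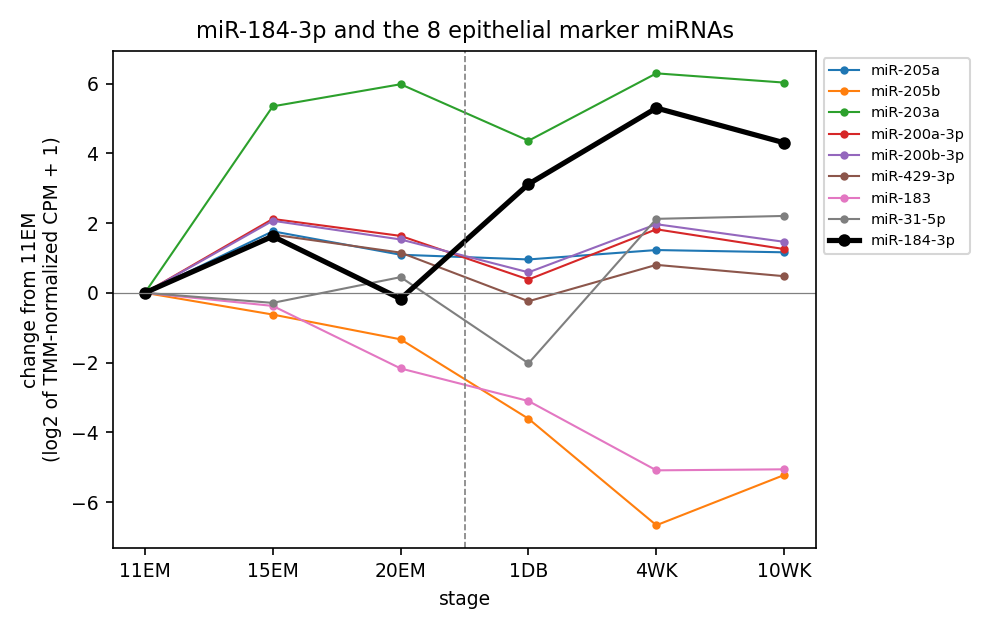
Change from 11EM in the stage mean of log2(TMM-normalized CPM + 1) for miR-184-3p (thick black) and 8 epithelial miRNAs, with hatch as a dashed line. From 20EM to 1DB miR-184-3p goes up while none of the 8 rose in the test, and miR-205b and miR-183 end far below their 11EM level.

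Within stages, the library lowest in miR-184-3p was the one with the highest epithelial sum at 11EM (replicate 1, 17.5 and 47755 CPM), 15EM (replicate 2, 90.7 and 121259 CPM) and 20EM (replicate 3, 33.0 and 87564 CPM). At 20EM the higher sum of replicate 3 came mainly from miR-203a (38568 CPM, against 22002 in replicate 1). There miR-205a was lower (39228 against 45891 CPM), as were miR-205b and miR-200a-3p, while miR-200b-3p was higher. At 1DB replicate 3 was also lowest in miR-184-3p and highest in the sum (310.2 and 47947 CPM). However, replicate 1 there had nearly the same miR-184-3p level (319 CPM, with overlapping Wilson 95% intervals) and the lowest sum (36690 CPM). At 4WK and 10WK the library highest in miR-184-3p was also highest in the epithelial sum (4WK replicate 2, 2790 and 91782 CPM, and 10WK replicate 3, 1137 and 74092 CPM). The library lowest in miR-184-3p was lowest in the sum at 4WK (replicate 1, 872 and 81294 CPM). It was not at 10WK, where replicate 2 had 642 CPM and a sum of 72702 CPM, above the 64658 CPM of replicate 1. These are descriptions of 3 or fewer libraries each.

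The ratio of miR-184-3p to an epithelial miRNA in the same library does not depend on how libraries are scaled. It was taken as log2 of the ratio of counts, each plus 0.5, for 4 partners, and tested across hatch by an exact two-sided permutation test with adjustment over the 4. This test shuffled single libraries without regard to their stage. Stages within a period differed in the ratio, so its p-values do not treat stages as the units. Against miR-205a, the most abundant of the 4 in most libraries and known to promote expansion of skin stem cells in mice, the ratio was -9.05 ± 1.20 (SD, n = 8) before hatch and -5.53 ± 0.93 (n = 9) after. The difference of 3.52, 11.5-fold, had an exact permutation p = 8.23e-05, the smallest that these splits can give, and adjusted p = 0.00011, and the groups did not overlap. In counts, a library held a median of 253 miR-205a reads per miR-184-3p read at 11EM, 327 at 15EM and 1006 at 20EM. After hatch the median was 82.7 at 1DB, 18.3 in 4WK libraries and 47.3 in 10WK libraries. The partner itself was not called across hatch, with a log2 change of 0.15 (SE 0.16, edgeR adjusted p = 0.421).

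The miR-200 family, which maintains epithelial character by acting on the ZEB repressors, gave higher ratios, with differences across hatch of a similar size. All ratios share the counts of miR-184-3p, so their tests are not independent. Like miR-205a, miR-200a-3p and miR-200b-3p were not called across hatch (log2 changes -0.13 and 0.07). The differences in these ratios therefore largely restate the rise of miR-184-3p. To miR-200a-3p the log2 ratio was -4.33 ± 1.33 (SD, n = 8) before and -0.58 ± 0.54 (n = 9) after hatch, a difference of 3.75 (13.4-fold, exact permutation p = 8.23e-05, adjusted p = 0.00011) with no overlap. To miR-200b-3p it was -3.05 ± 1.42 and 0.46 ± 0.61, a difference of 3.52 (11.5-fold, the same permutation p and adjusted p), also with no overlap. In embryonic libraries miR-200b-3p always outnumbered miR-184-3p, by a median of 2.99 reads to 1 at 11EM and 19.0 to 1 at 20EM. At 1DB the median was 1.02 miR-200b-3p reads for each miR-184-3p read, at 4WK 0.409 and at 10WK 0.769. miR-200b-3p still had more reads than miR-184-3p in 1DB replicate 1 (1.12 to 1), 1DB replicate 3 (1.02 to 1) and 4WK replicate 1 (1.08 to 1).

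The ratio to miR-203a behaved differently. It was -6.18 ± 2.91 (SD, n = 8) before and -4.54 ± 0.72 (n = 9) after hatch, a difference of 1.64 that did not pass (exact permutation p = 0.123, adjusted p = 0.123), and 3 embryonic libraries lay above the lowest later one. All 3 were from 11EM, where miR-203a was at 489 ± 250 CPM (n = 3), against 19557 ± 5261 at 15EM. Without 11EM replicate 2 or replicate 3 the adjusted p was 0.0451 and 0.0199 by the same permutation test, with differences of 2.13 and 2.29. The mean ratio to miR-203a ran from -3.26 at 11EM to -6.96 at 15EM and -9.40 at 20EM, then stood between -4.95 and -4.21 at the later stages.

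**Figure D4:**
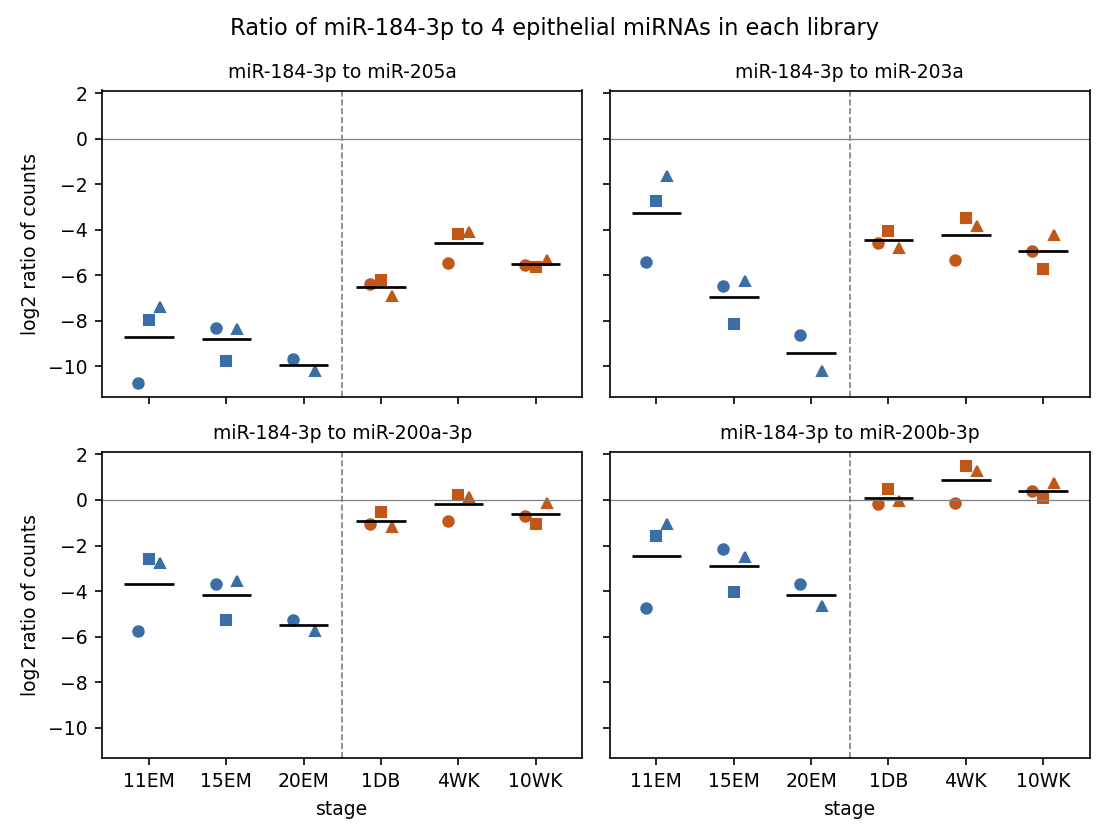
Log2 ratio of miR-184-3p counts to the counts of miR-205a, miR-203a, miR-200a-3p and miR-200b-3p in each library, by stage, with stage means as bars, replicate numbers as symbols and hatch as a dashed line. Embryonic (blue) and later (orange) libraries do not overlap in 3 of the panels and do in that of miR-203a.

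miR-205b took the opposite course. It was the least alike of the 181 miRNAs compared by Pearson's r over the 6 stage means (r = -0.94), a description over 6 points with no test. Its mean fell from 9699 CPM at 11EM to 6644 by 15EM and 3983 by 20EM, and on to 689 at 1DB and 193 in 4WK skin, with 225 in 10WK skin. Across hatch its log2 change was -4.16 (SE 0.46), given as a description because its course was chosen as the most opposite. The log2 ratio of miR-184-3p to miR-205b was -7.69 ± 1.46 (SD) at 11EM, -5.42 ± 0.67 at 15EM and -6.52 ± 0.28 at 20EM (n = 2). It was -0.93 ± 0.28 at 1DB, 4.36 ± 2.06 in 4WK skin and 1.88 ± 0.16 in 10WK skin (n = 3 except at 20EM). All libraries up to 1DB thus held more miR-205b than miR-184-3p, and all libraries at 4WK and 10WK held less. In 4WK replicate 1 miR-205b was at 8.08 CPM, from 40 counts, against 323 and 248 CPM in the other 4WK libraries. That replicate sets the wide SD at 4WK, and as stated above reads of miR-205b and miR-205a could be assigned to each other.

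**Figure D5:**
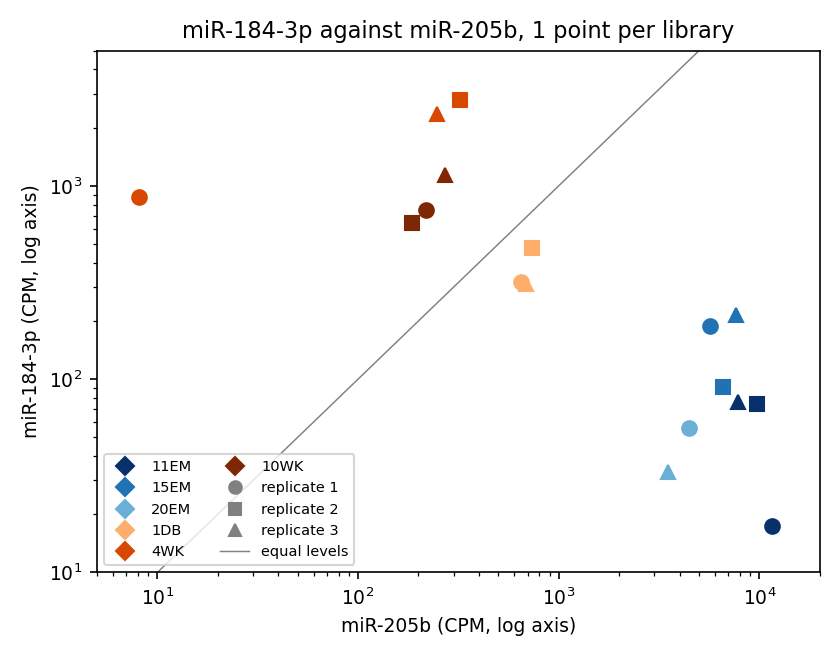
CPM of miR-184-3p against CPM of miR-205b in each library, both on log axes, coloured by stage and with the line of equal levels. Points of 11EM to 1DB lie to the right of the line and points of 4WK and 10WK to the left, with 4WK replicate 1 far to the left at 8.08 CPM of miR-205b.

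The 5 miRNAs whose course over the 6 stage means was most like that of miR-184-3p were miR-219b (r = 0.95), miR-223 (0.94), miR-15a (0.94), miR-1454 (0.94) and miR-451 (0.93), of 181 compared. Over only 6 points 12 miRNAs had an r over 0.9, so likeness of this degree was not rare. The same 5 led with CPM of library totals. Their sizes of change differed. miR-219b ranged over only 0.65 on the log2 scale, while miR-223, a miRNA of myeloid cells, ranged over 4.07 and miR-451, a miRNA of red blood cells, over 3.49. miR-219b was called in no comparison. Its libraries spread widely within stages, with 605, 717 and 1501 CPM at 4WK and 1019 and 409 CPM at 20EM. These 5 miRNAs were chosen for a course like that of a miRNA that rose across hatch, so their own change there is a description. Its log2 value was 3.36 for miR-223, 2.77 for miR-451, 1.93 for miR-1454, 0.81 for miR-15a and 0.54 for miR-219b. On the TMM-normalized scale, 22 of the 181 were highest at 4WK, as miR-184-3p was. Besides miR-205b, the most opposite courses were those of miR-130a-3p (r = -0.93) and miR-1677-3p (r = -0.92).

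Among markers of other cell types, those of leukocytes rose with miR-184-3p from 1DB to 4WK and across hatch, but not from 11EM to 15EM. The summed leukocyte markers (miR-142-3p, miR-142-5p, miR-155 and miR-223) were 448 to 742 CPM in the embryonic libraries, 1014 to 1104 at 1DB, 3286 to 9308 at 4WK and 1885 to 3104 at 10WK. The 3 of these 4 that passed the low-count filter each rose from 1DB to 4WK, where 14.3% of all tested miRNAs rose, and across hatch, where 21% rose and 29.4% fell. From 20EM to 1DB only miR-223 was called (log2 change 2.65), where 11.5% of all tested miRNAs rose. miR-142-3p (0.39) and miR-142-5p (0.84) were not called in that step. The fourth member, miR-155, was at or near 0 in every library. At 4WK replicate 2 was highest in both miR-184-3p (2790 CPM) and the leukocyte sum (9308 CPM), but replicate 3, with 2342 CPM of miR-184-3p, had the lowest leukocyte sum (3286 CPM). At 10WK the 3 libraries had the same order in both, with 642, 748 and 1137 CPM of miR-184-3p and sums of 1885, 2364 and 3104 CPM. Most of the leukocyte sum was miR-142-5p in every library. At 10WK miR-223 and miR-142-3p did not keep the order of the sum. Both were lowest in replicate 1, by a small margin, while miR-184-3p was lowest in replicate 2. Red blood cell markers (miR-451 and both arms of miR-144) summed to 1830 to 4289 CPM before and 9382 to 21235 CPM after hatch, where 1 of 3 rose. That one was miR-451, which made up most of the sum. The arms miR-144-3p and miR-144-5p were not called, with log2 changes of -0.41 and 0.22. Neural markers (miR-124a-3p, miR-124c-3p, miR-9-5p and miR-137-3p) went the other way, from 143.9 to 400.6 CPM before to 38.7 to 109 CPM after hatch, and 3 of 4 fell. Most of the neural sum was miR-9-5p, with a mean of 361 CPM at 15EM and 47.7 CPM at 10WK, so it says little about the others. Of 4 mesenchymal and 2 endothelial markers none was called across hatch, and of 6 muscle markers 2 rose and 1 fell. The part of these cell types in the change of miR-184-3p was not tested.

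Read trimming split the libraries into 5 that kept over 98% of their reads (11EM replicate 3, 15EM replicates 1 and 2, 20EM replicate 3 and 4WK replicate 1) and 12 that kept under 96%. What made this difference is not given in the sources used here. Among the 12 alone, miR-184-3p rose across hatch by 3.58 on the log2 scale (edgeR adjusted p = 2.11e-05), from 11EM to 15EM by 2.25 (0.0225), from 20EM to 1DB by 3.00 (0.0111) and from 1DB to 4WK by 2.56 (0.00232). The 12 hold only 1 library at 15EM and 1 at 20EM, so the 2 comparisons with those stages set a lone library against the other stage, and the lone library is assumed to vary like the rest. The log2 change from 4WK to 10WK was -1.50 (edgeR adjusted p = 0.101). The 5 other libraries include only 1 from after hatch, so no value is given within them. In the 12, the ratios to miR-205a, miR-200a-3p and miR-200b-3p differed across hatch by 3.64, 3.76 and 3.67 (exact permutation, adjusted p = 0.00539 each).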

How the data were processed

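Small RNA was sequenced from duck back skin. The authors trimmed and quality-filtered reads with the FASTX-Toolkit, dropped those under 18 nt, removed other noncoding RNA allowing 2 mismatches, and matched the rest to chicken miRNAs of miRBase release 21 with CLC Genomic Workbench 5.5. The deposited values are raw counts per hairpin arm in 1 file per library, with no normalization. Matching to chicken sequences could miss duck reads that differ from them, and PCR copies were counted without molecular identifiers.

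Here counts were summed per mature miRNA name, and CPM were taken of each library's total (median 7606084 counts). Libraries were grouped by the stage in their labels, 17 of 18 being used. edgeR 4.0.16 (R 4.3.3) fitted all 6 stages in one quasi-likelihood model with TMM factors, on 252 miRNAs that reached 1 CPM in 2 or more libraries. Alternatives were DESeq2 1.42.0, limma 3.58.1 on log2 values (zeros replaced by 0.01 CPM), library totals, no filter, a filter of 10 CPM in 3 or more libraries, a replicate block, the class of the share of reads kept after trimming (of unknown origin) as a covariate, the compared stages alone, and each library left out. A fit within one trimming class was added after seeing the data. Ratios were tested with SciPy 1.17.1, and the arm duplex was folded with ViennaRNA 2.7.2. The fits were tested on simulated data. Likeness was Pearson's r over stage means of log2(TMM-normalized CPM + 1), among tested miRNAs with a mean of at least 10 CPM. The named miRNAs are the arms of miR-184, 8 epithelial miRNAs, the 5 most like and the 3 most opposite, with other marker lists given by counts and sums. The members and lists were chosen with earlier results of these data known. No 2 libraries of the same stage agreed within sampling noise.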

Additional observations from a re-analysis of the deposited data

How the results depend on the processing

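For miR-184-3p, 10 of the 15 pairs of stages kept their direction and their side of the threshold under every alternative run. The rise across hatch ranged from 3.49 to 3.94 on the log2 scale, that from 20EM to 1DB from 3.00 to 3.66, and that from 1DB to 4WK from 2.04 to 2.68. The ratios to miR-205a, miR-200a-3p and miR-200b-3p kept their calls under all 20 alternatives. Where the cause is not given, it was not tested.

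With the compared stages alone, the rise from 11EM to 15EM was 1.72 (edgeR adjusted p = 0.0604), the change from 11EM to 20EM turned to 0.0638, and that from 1DB to 10WK, 1.11, was called (0.00512). The stricter filter also turned 11EM to 20EM, to 0.0179. The fall from 15EM to 20EM lost its call with limma (-1.84, adjusted p = 0.0604), no filter (-1.74, edgeR 0.0627) and the stricter filter (-1.66, 0.0558). The rise from 15EM to 1DB lost its call with limma (1.23, adjusted p = 0.0895), library totals (1.17, edgeR 0.0618) and trimming class as a covariate (1.13, 0.0987). The 3 miRNAs called from 4WK to 10WK became 12 with DESeq2, 8 with limma, and 5 with library totals, with the stricter filter and within the class that kept under 96% of reads. The ratio to miR-203a, as a difference of medians, was 1.79 and passed (exact permutation, adjusted p = 0.032).

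Leaving out 1 library at a time, the log2 change ranged from 1.14 to 1.96 for 11EM to 15EM, from -0.77 to 0.27 for 11EM to 20EM, from -2.23 to -1.55 for 15EM to 20EM, from 1.15 to 1.75 for 15EM to 1DB, and from 0.89 to 1.41 for 1DB to 10WK. The difference in the ratio to miR-203a ranged from 1.07 to 2.29. The count called from 15EM to 20EM ranged from 17 (without 20EM replicate 3) to 42, against 35. From 4WK to 10WK it ranged from 1 (without 4WK replicate 2) to 16 (without 4WK replicate 3), and it was 5 without 11EM replicate 3 or 1DB replicate 3. By Spearman's rho the likeness of miR-223 and miR-1454 was 0.83.

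No sign was seen that replicate numbers pair the libraries, and whether they do is not stated in the sources used here. Deviations from the stage mean over 182 miRNAs correlated with a mean r of -0.033 in 40 pairs of the same number and 0.016 in 80 pairs of different numbers, and 4 of 17 libraries correlated best with their own number. With the replicate block the change from 15EM to 20EM was -1.72 (edgeR adjusted p = 0.0645) and that across hatch 3.67 (7.75e-07), and the count called across hatch went from 127 to 122. The block changed no other call of miR-184-3p.

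Depth limits the 5p arm, which had 33 reads in all. With 2 libraries at 20EM and a wide spread within stages, changes among 11EM, 15EM and 20EM rest on single libraries, while the rise from all embryonic to all later libraries did not in these fits.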
